A study of Ovis aries with 36 samples.

Results

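The Longissimus lumborum (LL), a muscle of the back, was compared with the Semitendinosus (ST), a muscle of the caudal thigh, in a series of lamb muscle transcriptomes. The libraries were chosen by their titles, LL of animals 1 to 4 and ST of the same 4 animals, which makes 8 of the 36 samples, and both muscles were paired within the animal. The lambs were unrelated Poll Dorset crosses, 14 months old at slaughter, and all of them had been supplemented with soy and sorghum after weaning. Both groups were taken from the middle of the superficial belly just after slaughter, and the muscle is the label that separates them. The other 28 samples came from 7 further muscles of these animals, Adductor (AD), Psoas major (PM), Rectus femoris (RF), Supraspinatus (SS), Semimembranosus (SM), Gluteus medius (GM) and Gluteobiceps (GB). Here they serve to estimate the spread left after muscle and animal are fitted, and to place LL and ST among them.

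Skeletal muscles are mixtures of slow and fast fibres. Slow fibres carry their own isoforms of myosin, troponin and tropomyosin, refill the sarcoplasmic reticulum with a slow calcium pump and rely on oxidative metabolism, whereas fast fibres contract with fast isoforms, may hold the calcium buffer parvalbumin and draw more on glycogen. A muscle also keeps a record of where in the body it formed, since transcription factors of position differ between back, trunk and limb.

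Totals ranged from 5317026 to 6378073 counts per sample in LL and from 4905225 to 6407360 in ST. A set of 4 short loci that carry no Ensembl identifier, each with over 5% of the counts, took most of them and left 1221391 to 1920159 counts for all other loci. These 4 loci took 69.1% ± 1.17 of the counts in LL and 73.7% ± 1.45 in ST (SD, n = 4), lower in LL in 4 of 4 animals (exact paired permutation test, two-sided, p = 0.125, the smallest that 4 pairs allow). Levels are given below as CPM, counts scaled to the size of the TMM-normalized library. In the 8 samples 3 counts, the least taken as different from 0, were 0.478 to 0.8 CPM, a floor that covers counting error only because reads were not tagged as molecules. The files hold no gene symbols, and 30 genes could be paired with a single tested locus through the positions (Oar_v3.1 assembly) in the tables of the study. Those tables list differences between pairs of these same muscles, so the genes named here were not drawn at random, and their counts are no independent evidence of a direction.

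Of 12461 loci tested, 192 were differentially expressed genes (DEG) between LL and ST, 1.54% of the loci. A DEG had a false discovery rate (FDR, by the Benjamini-Hochberg method) of 0.01 or less in the quasi-likelihood test of edgeR, together with a change of more than 1 on the log2 scale. LL was higher in 104 of them (0.835% of the loci tested) and ST in 88 (0.706%). The log2FC is LL minus ST throughout, so positive values mean a higher level in LL. Beside it stands the SE over the 4 animals of their own LL minus ST difference in log2 CPM, a scale that is compressed at low counts. Animals 1, 2, 3 and 4 had the direction of the fit in 191, 191, 189 and 186 of the 192 DEG, all 4 animals had it in 183, and the 4 LL values did not overlap the 4 ST values in 145, of which 72 were higher in LL and 73 in ST. Among all tested loci 5.55% did not overlap, 2.49% with LL and 3.07% with ST higher. The median log2FC was 1.96 among DEG up regulated in LL and -1.70 among those up regulated in ST, and 80 of the 192 exceeded an absolute log2FC of 2. Before adjustment, p was under 0.05 at 2085 loci. The number of DEG depended on the fit, with 30 when only the 8 samples were fitted and 86 without the animal in the model (25 higher in LL and 61 in ST), and it was 95 without animal 1 and 124 without animal 4.

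Slow contractile genes made up most of the named genes that were higher in LL. Of 18 slow fibre genes listed, 7 could be paired with a locus, and 5 of these 7 were up regulated in LL and none in ST, against 0.835% of all loci tested. Their median log2FC was 1.62, beside 0.01 over all tested loci. All 7 could be paired because the study lists them as lower in ST than in SS, from the same ST libraries, so the count and the median describe genes already chosen for a low level in ST. From counts of whole muscle alone, fewer slow fibres and less RNA per fibre cannot be told apart. The study cites fibre typing of these muscle samples, in which ST had the lowest percentage of type I (slow) fibres. The part of this in the differences was not tested.

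MYL3 (ENSOARG00000006996, chr19:52560400-52569198), the essential light chain of slow and ventricular myosin, was measured at 21, 21.6, 34.1 and 18.3 CPM in LL of animals 1 to 4 and at 1.33, 1.09, 5.3 and 3.66 CPM in ST. Every LL sample lay well above every ST sample, and animals 3 and 4 were the highest in ST. Between the means of 23.8 ± 7.06 and 2.85 ± 2.01 CPM (SD, n = 4), the difference was the largest of the paired slow genes (log2FC = 3.03, SE 0.41, FDR = 1.7e-06, edgeR). It was past both thresholds in each of the 13 other fits in which it was tested.

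MYOZ2 (ENSOARG00000016717, chr6:6264895-6303407), a Z-disc protein of slow fibres that binds calcineurin, stood at 14.2, 8.77, 17.2 and 4.3 CPM in LL and at 1.6, 1.53, 4.97 and 2.8 CPM in ST (log2FC = 1.98, SE 0.50, FDR = 0.00017). LL was higher in each animal, but LL of animal 4 lay below ST of animal 3. The slow tropomyosin TPM3 (ENSOARG00000001845, chr1:103039221-103067829) was at 41.1, 49.6, 49.6 and 25.8 CPM in LL and at 11.5, 10.1, 18.6 and 19.6 CPM in ST, without overlap and with the smallest gap in animal 4 (log2FC = 1.56, SE 0.40, FDR = 0.00018). Both kept an FDR of at most 0.01 with any 1 animal left out, whereas it was 0.016 and 0.015 without the animal in the model, and 0.011 and 0.012 with the 8 samples alone.

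The 3 slow troponin subunits had the same pattern across the animals, with LL higher in animals 1 to 3. The tropomyosin-binding subunit TNNT1 (ENSOARG00000001823, chr14:59547242-59556889) was at 68.4, 119, 81.5 and 27.4 CPM in LL and 16.8, 19.7, 23.7 and 32.8 CPM in ST (log2FC = 1.71, SE 0.62, FDR = 0.00046). The calcium-binding subunit TNNC1 (ENSOARG00000004312, chr19:48403558-48406316) was at 52.9, 141, 89.6 and 34.6 CPM in LL and 19.5, 26.7, 30.0 and 38.2 CPM in ST (log2FC = 1.46, SE 0.53, FDR = 0.0032). In both genes animal 4 was slightly higher in ST, while the other animals were far higher in LL. The inhibitory subunit TNNI1 (ENSOARG00000018755, chr12:78585640-78596742) was at 10.4, 33.5, 16.3 and 6.54 CPM in LL and 2.93, 3.06, 6.13 and 10.3 CPM in ST, and missed the FDR threshold (log2FC = 1.62, SE 0.81, FDR = 0.014). Without animal 4 TNNI1 passed it (log2FC = 2.37, FDR = 0.00055). TNNT1 no longer passed without animal 1, 2 or 3 (FDR = 0.016, 0.017 and 0.012), nor did TNNC1 (FDR = 0.021, 0.069 and 0.048).

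MYOM3, a protein of the M-band, was the paired slow gene with the smallest difference (log2FC = 0.44, SE 0.70, FDR = 0.66), at 4.85, 13.1, 8.24 and 2.55 CPM in LL and 5.07, 2.19, 9.95 and 4.53 CPM in ST. Only animal 2 was higher in LL. Over the 7 paired slow genes, LL was higher in 6 genes in animal 1, 7 in animal 2, 6 in animal 3 and 3 in animal 4, and the median within-animal difference in log2 CPM was 1.81, 2.40, 1.57 and -0.14, so that the slow genes separated the muscles in animals 1 to 3 and hardly in animal 4.

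**Figure D1:**
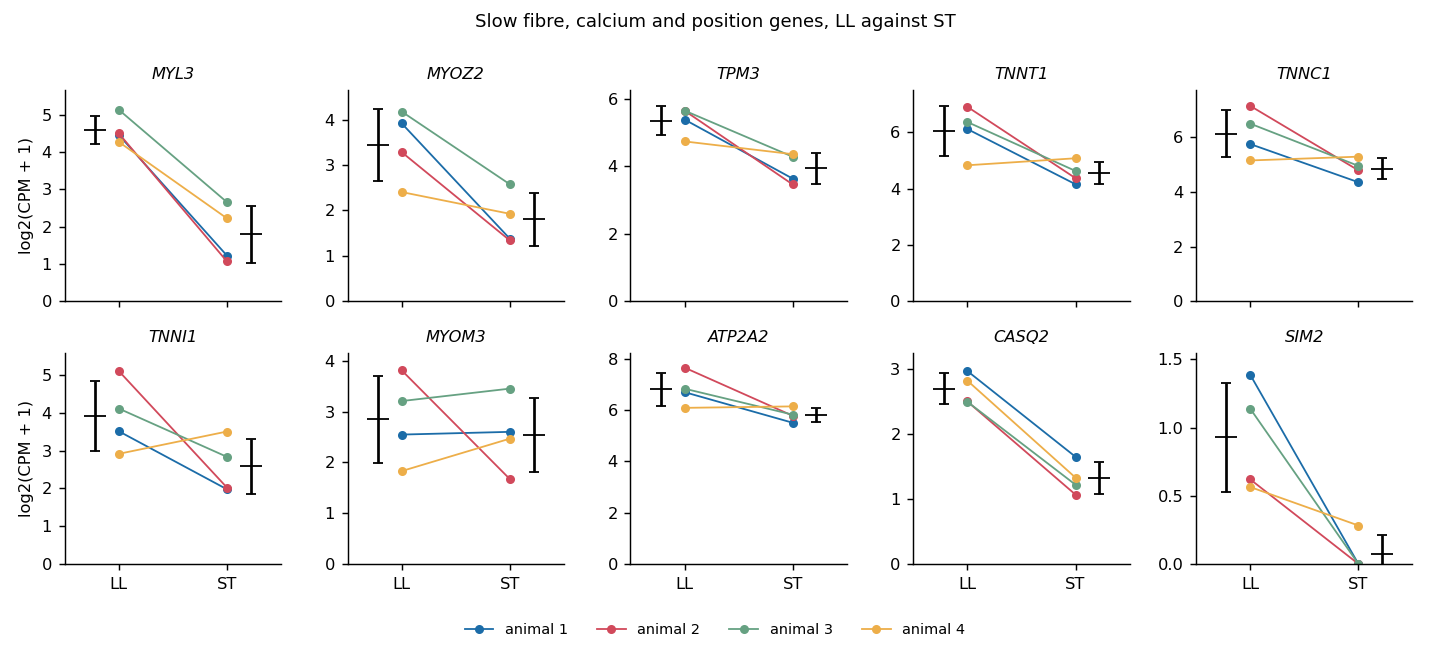
Levels of 7 slow fibre genes, 2 calcium handling genes and SIM2 as log2(CPM + 1) in LL and ST, with 1 line per animal and the mean ± SD of the 4 animals in black. The lines fall from LL to ST in all 4 animals for MYL3, MYOZ2, TPM3, CASQ2 and SIM2, and rise in animal 4 alone for TNNT1, TNNC1, TNNI1 and ATP2A2. For MYOM3 they fall in animal 2 alone.

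Positions of other contractile genes fell within several tested loci that share the same coordinates, so the name was not assigned. At the position of the slow regulatory light chain MYL2, in a span that also holds CCDC63 (chr17:54257918-54303146), one locus was at 23.1, 51.5, 22.7 and 15.8 CPM in LL and 12.8, 6.12, 8.45 and 14.9 CPM in ST (log2FC = 1.41, FDR = 0.021), and the other had a log2FC of 0.99 (FDR = 0.13). Neither was past the thresholds, although the first did not overlap between the muscles. At the position of MYH7B, a slow-type myosin heavy chain (chr13:63837469-63938828), one locus was up regulated in LL, at 23.3, 37.9, 6.01 and 4.78 CPM against 3.47, 2.19, 4.97 and 3.88 CPM in ST (log2FC = 2.15, FDR = 0.0065), and the other was not (log2FC = -0.06, FDR = 0.92). The first locus was high in LL of animals 1 and 2 and near the ST values in animals 3 and 4, and its FDR was 0.057 without animal 1 and 0.17 without animal 2.

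Of 23 calcium handling genes listed 3 were paired, of which 2 were higher in LL and 1 in ST (0.835% and 0.706% of all tested loci were). The 2 higher in LL were slow or cardiac forms, and the 1 higher in ST was parvalbumin. The study lists the 2 slow or cardiac forms as lower in ST than in SS, from the same ST libraries, which fixes part of their direction. CASQ2 (ENSOARG00000020163, chr1:92170833-92243108), the calsequestrin of cardiac and slow muscle that stores calcium in the sarcoplasmic reticulum, was at 6.82, 4.65, 4.63 and 6.06 CPM in LL and 2.13, 1.09, 1.33 and 1.51 CPM in ST. The muscles did not overlap, and the within-animal difference was nearly the same in all 4 animals (log2FC = 1.88, SE 0.07, FDR = 0.00046). The slow calcium pump ATP2A2 (ENSOARG00000016226, chr17:53803321-53860163) was at 103, 201, 113 and 67.1 CPM in LL and 44.5, 54, 55.7 and 69.8 CPM in ST, again with animal 4 slightly higher in ST (log2FC = 1.11, SE 0.40, FDR = 0.0059). ATP2A2 was past the thresholds without animal 4 but not without animal 1, 2 or 3 (FDR = 0.062, 0.11 and 0.041).

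PVALB (ENSOARG00000019026, chr3:180006084-180067626), the calcium buffer of fast fibres, was nearly absent from LL. It had 3 counts over the 4 LL samples and 107 over the 4 ST samples, that is 0.179, 0.358, 0 and 0 CPM in LL and 7.73, 7.0, 6.13 and 1.94 CPM in ST. The muscles did not overlap, and LL was at or below the floor of 3 counts in each animal. ST was 43.7-fold higher per normalized library (95% exact interval 14.5 to 215, for counting error only). The fitted log2FC was -5.39 (FDR = 3.5e-06), a value that depends on the prior count at so few counts in LL.

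A pair of neighbouring loci on chromosome 20 had the strongest evidence for a higher level in ST. The locus ENSOARG00000002495 (chr20:49693089-49762526), which no table used here pairs with a symbol, had the smallest p of all DEG, with 1.08, 2.15, 0.858 and 0.956 CPM in LL and 27.2, 10.1, 71.6 and 19.4 CPM in ST (log2FC = -4.50, SE 0.79, FDR = 6.9e-09). An unannotated transcript that the study assigned to the kinase gene MYLK4 begins just after its end (chr20:49762606-49765006). This unit was at 0.718, 0.179, 0 and 0.159 CPM in LL and 6.13, 3.06, 13.1 and 7.11 CPM in ST, and the fitted log2FC was -4.73 (SE 0.62, FDR = 1.3e-07). At both loci animal 3 was the highest in ST and animal 2 the lowest, and no LL sample reached an ST sample. Whether they are parts of one transcript was not tested.

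Of 77 listed genes of position in the body 4 were paired, of which 1 was higher in LL and 1 in ST (0.835% and 0.706% of all tested loci) and 2 did not differ past the thresholds. EYA1 (ENSOARG00000004513, chr9:47588481-47960610), a transcriptional cofactor and phosphatase of the eyes absent family, was at 0.179, 0.537, 0.343 and 0.478 CPM in LL and 1.33, 1.53, 2.65 and 3.02 CPM in ST, without overlap. Its fitted log2FC was -2.44 (FDR = 0.0015), on 9 counts in LL and 42 in ST, and it missed the FDR threshold without animal 3 (0.029) or animal 4 (0.06). SIM2 (ENSOARG00000014072, chr1:267018135-267070595), a transcription factor of the bHLH-PAS family, had 22 counts in LL and 1 in ST, that is 1.62, 0.537, 1.2 and 0.478 CPM against 0, 0, 0 and 0.216 CPM. LL was 18-fold higher with an exact 95% interval from 2.9 to 741, and the FDR of 0.0021 became 0.083, 0.013 and 0.052 without animal 1, 2 or 3. The homeobox genes HOXD8 (11.8, 10.7, 19.6 and 14.2 CPM in LL, 9.07, 9.4, 11.6 and 12.5 in ST, FDR = 0.42) and HOXC10 (3.23, 1.97, 2.92 and 1.59 CPM in LL, 3.2, 4.37, 2.82 and 3.66 in ST, FDR = 0.37) overlapped between the muscles.

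FREM2 (ENSOARG00000009812, chr10:23560959-23715430), an extracellular matrix protein, was the remaining paired gene past the thresholds, at 2.33, 2.33, 4.29 and 1.91 CPM in LL and 0, 0.875, 1.82 and 0.647 CPM in ST (log2FC = 1.61, SE 0.45, FDR = 0.0078), and its FDR was between 0.021 and 0.068 whichever animal was left out. KCNMA1, a calcium-activated potassium channel, passed the FDR but not the fold threshold, at 7.54, 8.41, 8.24 and 7.01 CPM in LL and 16, 10.9, 13.1 and 12.1 CPM in ST, with no overlap (log2FC = -0.73, SE 0.14, FDR = 0.0042). RIMS2, a protein of the presynaptic active zone, was at 7.54, 1.43, 6.69 and 7.01 CPM in LL and 1.87, 2.62, 2.82 and 1.72 CPM in ST (log2FC = 1.25, SE 0.61, FDR = 0.03). Animal 2 was the one animal with RIMS2 lower in LL, and without it the FDR was 0.0033. DLG2, a scaffold protein of synapses, had a log2FC of 0.04 (FDR = 0.98).

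In all, 11 of the 30 paired genes were past the thresholds, 9 higher in LL and 2 in ST, where 0.835% and 0.706% of all tested loci were. The genes come from tables of differences between these muscles, so nothing is read from this share. The other 19 had a log2FC between -0.73 and 1.62. Those with the most counts were CHI3L1, a secreted glycoprotein (FDR = 0.51), TACC2 (FDR = 0.078), the lysine methyltransferase SMYD2 (FDR = 0.77) and TMEM2 (FDR = 0.34). Levels of SMYD2 were 35, 30.6, 30.7 and 29.6 CPM in LL and 31.2, 26.2, 21.9 and 37.3 CPM in ST, with wide overlap. METTL21C, a methyltransferase of muscle, had a log2FC of 1.5 with the same sign in 4 animals, but animal 1 was far above the others in both muscles (18.8, 4.11, 2.4 and 2.87 CPM in LL, 6.67, 0.875, 0.995 and 1.29 in ST) and the FDR was 0.26. The 1 paired gene of glycogen metabolism, PPP1R3D, did not differ past the thresholds (log2FC = 0.36, FDR = 0.44). For 11 of 17 gene lists, fast contractile genes, respiration, fatty acid use and the markers of adipocytes, fibroblasts, vessels, immune and Schwann cells among them, no member could be paired with a locus, so those groups and the cell makeup of the samples were not tested. The defining markers of skeletal muscle could not be paired either, so the labelled tissue was checked only through the contractile genes above.

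**Figure D2:**
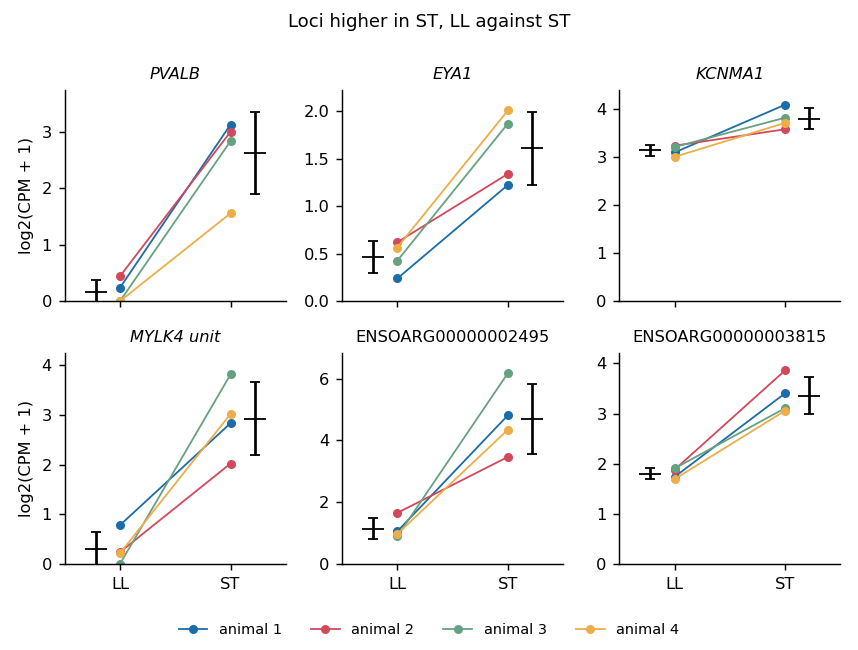
Levels as log2(CPM + 1) in LL and ST of PVALB, EYA1, KCNMA1, the unannotated unit assigned to MYLK4, and ENSOARG00000002495 and ENSOARG00000003815, with 1 line per animal and the mean ± SD of the 4 animals in black. ST is higher in 4 of 4 animals for all 6.

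Some of the DEG with the smallest p are loci that carry an Ensembl identifier but no symbol. ENSOARG00000013116 (chr9:89664737-89675620) was at 401, 352, 509 and 278 CPM in LL and 87.5, 69.3, 121 and 93.8 CPM in ST, with a mean of 385 ± 96.6 against 93 ± 21.6 CPM (log2FC = 2.06, SE 0.17, FDR = 7.2e-08). All 4 LL samples lay far above the highest ST sample. ENSOARG00000011146 (chr2:248314984-248351464) was at 14.5, 25.2, 14.2 and 6.85 CPM in LL and 0.8, 1.31, 0.995 and 0.431 CPM in ST (log2FC = 4.01, SE 0.16, FDR = 2.1e-07), low in every ST sample and widely spread in LL. A locus at chr8:36569062-36646572 was at 3.77, 3.58, 7.55 and 3.19 CPM in LL and had 0 counts in all 4 ST samples (FDR = 1.4e-06). LL was 28.6-fold higher against a floor of 3 counts over the group. The exact 95% interval of its ratio to ST began at 22.8, for counting error only. In ST, ENSOARG00000003815 (chr1:234263233-234289203) was at 9.6, 13.6, 7.62 and 7.33 CPM beside 2.33, 2.68, 2.75 and 2.23 CPM in LL (log2FC = -1.90, SE 0.18, FDR = 1.3e-06), with a narrow spread in LL.

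Other large differences rested on few animals or few counts. A locus at chr6:43210256-43215274 was at 59.9, 0.537, 0.172 and 0.159 CPM in LL and had 0 counts in ST, so that 339 counts in LL, nearly all of animal 1, stood against none (FDR = 1.7e-06), and without animal 1 the FDR was 0.37. Animal 1 was also the highest sample at this locus in every other muscle except ST, from 1.03 CPM in SM to 26.3 CPM in AD. A locus at chr6:39939556-40091549 had 71 counts in LL and 3 in ST, a ratio of 19.3 (exact 95% interval 6.35 to 95.9), and was at 3.77, 1.79, 2.06 and 4.46 CPM in LL (FDR = 1.2e-05). It passed the thresholds with any 1 animal left out. In ST, a locus at chr9:57535693-57541096 was at 176, 23.6, 28.5 and 77.8 CPM, against 2.51, 1.07, 18.2 and 2.39 CPM in LL (log2FC = -3.76, FDR = 0.0003). Its FDR was 0.017 without animal 1 and 0.015 without animal 4, the animals with the highest ST values. The most negative log2FC of all DEG (-7.33, FDR = 0.00066), at chr15:17226738-17264088, rested on ST of animal 2 alone. That sample was at 3841 CPM, beside 1.66 to 2.59 CPM in the other ST samples and 1.37 to 3.94 CPM in LL. Only 2 animals had the direction of the fit there.

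The ST library of animal 1 stood above the other ST libraries at many loci up regulated in ST. ST of animal 1 was more than 1.5 times the next ST sample in 43 of the 88 DEG higher in ST, while ST of animals 2, 3 and 4 were so in 1, 2 and 0. Over all tested loci, these shares were 5.93%, 5.32%, 5.91% and 4.47%. A locus at chr1:198618107-198631249 illustrates it, with 302, 94.2, 69.8 and 139 CPM in ST and 8.26, 18.8, 27.5 and 28.7 CPM in LL (log2FC = -2.82, FDR = 7.4e-05). Another, at chr15:53324268-53358167, was at 108, 11.4, 9.12 and 21.6 CPM in ST and 3.05, 1.25, 4.46 and 1.91 CPM in LL (log2FC = -3.46, FDR = 3.8e-05), and without animal 1 its log2FC was -2.46. In both, the other ST samples still lay above all LL samples. At the chromosome 1 locus animal 1 was also the highest in GB (123 CPM against 19.6 to 62.2), but in none of the remaining muscles. At the chromosome 15 locus it was also the highest in GB (44.4 CPM against 3.94 to 16.1) and in all remaining muscles except LL and RF. In LL, animal 1 was more than 1.5 times the next LL sample in 25 of the 104 DEG higher in LL, animal 3 in 16, animal 2 in 9 and animal 4 in 2. As shares these were 24%, 15.4%, 8.65% and 1.92%, beside 5.83%, 3.12%, 8.92% and 3.72% over all tested loci, so that LL of animal 2 was near its background and LL of animal 4 below it. Without animal 1, 95 DEG were called, 61 higher in LL and 34 higher in ST, and 86 of these 95 were among the 192. ST of animal 1 also had the fewest counts outside the 4 most counted loci, 1221391, and the part of this in its high values was not tested.

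The directions differed by annotation. Loci without an Ensembl gene made up 3168 of the 12461 tested, and 61 of them were up regulated in LL and 5 in ST (1.93% and 0.158%), whereas 43 and 83 of the 9293 loci with an Ensembl gene were (0.463% and 0.893%). Of the 61, 36 lay inside the span of a locus with an Ensembl gene (3.36% of such loci) and 25 did not (1.19%). Many of the 61 were neighbours in the regions described below, so they are no independent counts. The largest region held 18 DEG, of which 1 carried an Ensembl gene. The median log2FC was 0.34 over all tested unannotated loci and -0.06 over annotated ones, and 73.6% against 43.2% had a positive log2FC. By animal, the median difference of the unannotated loci was 0.66, 0.21, -0.09 and 0.42 in animals 1 to 4, so that animal 3 did not share the shift. When libraries were normalized on loci with an Ensembl gene, 194 DEG were called, 58.8% of them higher in LL against 54.2% in the fit used here. The gap between the muscles in the share of the 4 most counted loci was also widest in animal 1 and narrowest in animal 3, and its part in the shift was not tested.

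**Figure D3:**
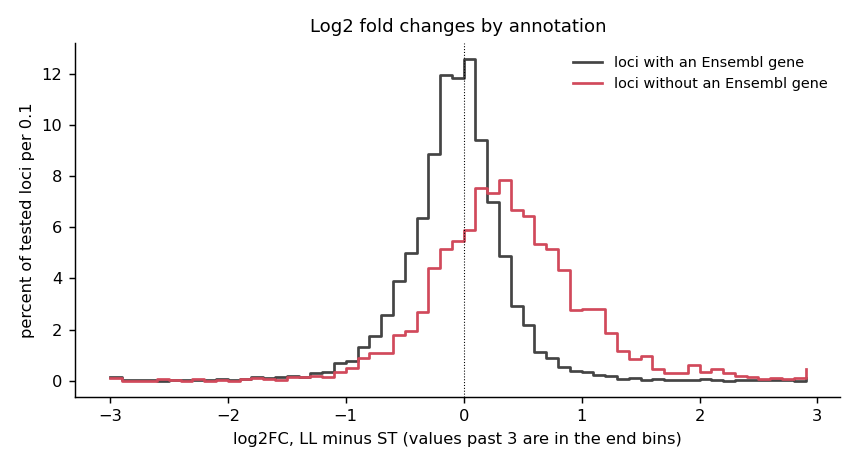
Distribution of the log2FC (LL minus ST) over the tested loci with and without an Ensembl gene, as the percent of loci per bin of 0.1. The curve of unannotated loci is shifted towards LL (median 0.34) relative to that of annotated loci (median -0.06).

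Many DEG up regulated in LL lay close together in the genome, so that they stand for fewer places than loci. With DEG at most 200 kb apart joined, the 192 fell into 136 regions, and 8 regions with at least 3 DEG held 55 of them, all higher in LL. Counted by region the order of the muscles was the opposite of that by locus, since 52 regions held a DEG higher in LL and 85 a DEG higher in ST. Assembled loci of 1 region often share the same coordinates in the files, and their reads may come from the same transcripts, so members of a region are no independent counts.

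The largest region (chr12:18028459-18720283) held 18 DEG among 51 tested loci, all 51 with a positive log2FC. The summed level of its tested loci was 1262, 170.1, 187 and 133 CPM in LL of animals 1 to 4 and 107, 75.4, 99.8 and 27.2 CPM in ST. LL of animal 1 stood far above the other LL samples, all of which were still above every ST sample. Without animal 1, 4 of the 18 loci passed the thresholds. The mean sum was 438 CPM in LL, 77.5 in ST and between 202 (SM) and 416 (GM) in the other 7 muscles. The mean of LL was raised by animal 1, which was also the highest sample in each of these 7, from 318 CPM (SM) to 891 (AD). In animals 2 to 4, GM was above LL, at 356, 348 and 251 CPM, and PM was below LL, at 107, 138 and 121 CPM. The span also holds the position of a transcript unit that the study assigned to ESRRG and listed as lower in ST than in SS.

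A region on chromosome 1 (chr1:224445384-224776390) held 11 DEG among 14 tested loci, with summed levels of 274, 352, 462 and 311 CPM in LL and 134, 124, 243 and 153 CPM in ST. LL was higher in each of the 4 animals, and the lowest LL sample exceeded the highest ST sample. Without animal 1, 6 of the 11 loci passed. In a compact region on chromosome 3 (chr3:138819344-138863155), all 10 tested loci were DEG and none carried an Ensembl gene. Their summed level was 24.2, 66.5, 60.2 and 15.3 CPM in LL and 1.07, 8.09, 13.4 and 1.29 CPM in ST, with animals 2 and 3 high and animals 1 and 4 low in both muscles, and 7 of the 10 passed without animal 1. One of them, chr3:138839190-138842956, is a transcript unit that the study tabulated, at 4.13, 12.2, 10.6 and 2.23 CPM in LL and 0, 1.75, 2.65 and 0 CPM in ST (log2FC = 2.75, FDR = 3.8e-05). The fit without the animal gave it an FDR of 0.13.

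**Figure D4:**
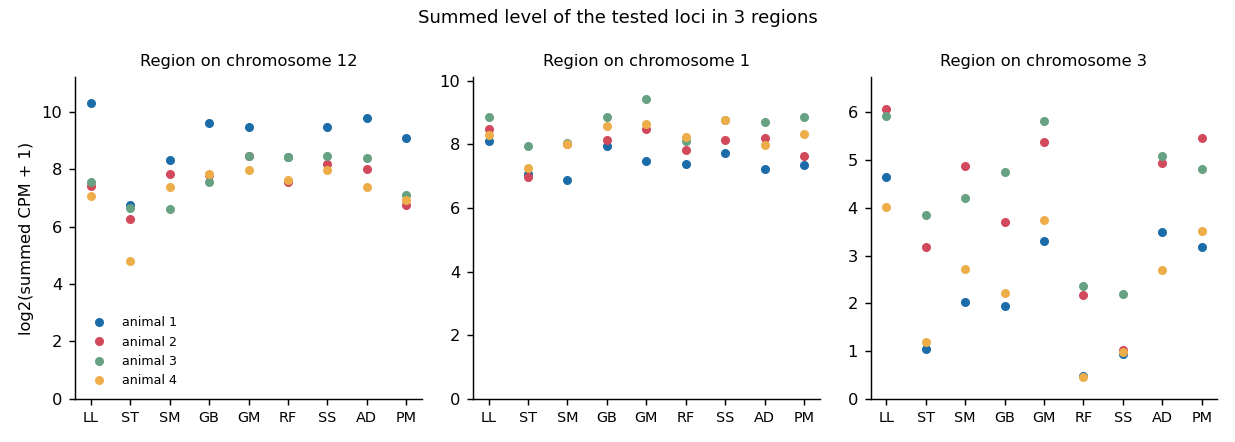
Summed level of the tested loci, as log2(summed CPM + 1), of the 3 regions with the most DEG in the 9 muscles, with 1 point per animal. Each animal is higher in LL than in ST in all 3 regions, and in the chromosome 3 region animals 2 and 3 lie above animals 1 and 4 in both LL and ST.

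Set beside the other 7 muscles, ST was more often the extreme one of the pair. ST had the lowest mean log2 CPM of the 9 muscles in 77 of the 104 DEG higher in LL, whereas LL had the highest in 52. ST had the highest mean log2 CPM in 68 of the 88 DEG higher in ST, and LL the lowest in 37. With medians of log2 CPM in place of means, these counts were 77 and 41, then 65 and 36. Over all tested loci, ST was the lowest in 14.9% and the highest in 13.5%, and LL was the highest in 10.1% and the lowest in 11.2%. These ranks describe loci that were chosen by the same LL and ST samples, so no test is read from them. Relative to the mean of the other 7 muscles, the median log2 difference of the DEG higher in LL was 0.49 for LL and -1.15 for ST, and that of the DEG higher in ST was -0.53 for LL and 1.03 for ST.

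At the paired genes higher in LL, ST was low beside every other muscle. ST had the lowest mean of the 9 muscles in all 9 paired genes up regulated in LL, while LL itself ranked 8th in 4 of them. All of these but SIM2 were listed by the study as lower in ST than in SS, which fixes part of this order. Mean MYL3 was 2.85 CPM in ST, 23.8 in LL and between 40.4 and 185 in the other 7, the highest being PM. TNNT1 had means of 23.2 CPM in ST, 74.1 in LL and 85.9 to 256 in the others. CASQ2 was closer to the others in LL, at 5.54 CPM in LL, 1.52 in ST and 3.23 to 10.1 elsewhere.

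PVALB, EYA1 and the chromosome 20 loci also had high means in RF and SS. Mean PVALB was 5.7 CPM in ST, 7.32 in RF and 5.65 in SS, where 1 animal lay far above the other 3, and at most 0.665 in the other 6 muscles. ENSOARG00000002495 had means of 32.1 CPM in ST, 16.3 in RF and 11.8 in SS, beside 1.11 to 5.72 in the other 6. The MYLK4 unit was also highest in ST (7.35 CPM), followed by SS (3.21) and RF (3.12), and EYA1 was higher in SS (4.65 CPM) and RF (4.53) than in ST (2.13). LL was the lowest of the 9 muscles for EYA1, at 0.384 CPM.

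Among the unnamed loci higher in LL, the place of LL among the 9 muscles varied, and it stood alone at 1 of those described. ENSOARG00000011146 was at a mean of 15.2 CPM in LL and at 0.551 to 1.96 CPM in the other 8 muscles, ST among them with 0.884. The locus at chr8:36569062-36646572 was at 7.83 CPM in PM and 4.52 in LL, and at most 0.148 in the other 7 muscles. ENSOARG00000013116 set ST and RF apart rather than LL, with other means from 249 CPM in SS to 385 in LL, against 93 in ST and 74.2 in RF.

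**Figure D5:**
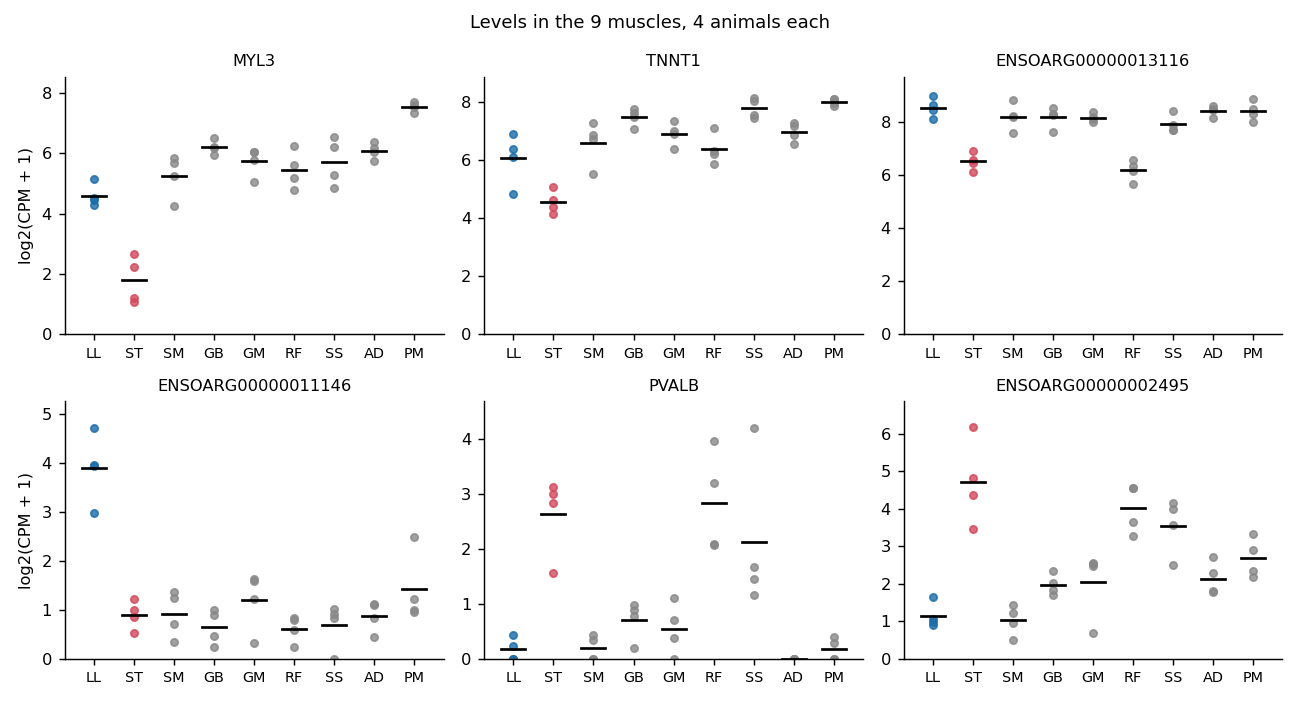
Levels as log2(CPM + 1) of 6 loci in the 9 muscles, with 1 point per animal, the mean as a black line, LL in blue, ST in red and the other 7 muscles in grey. MYL3 and TNNT1 are lowest in ST, ENSOARG00000013116 is low in ST and RF, ENSOARG00000011146 is high in LL, and PVALB and ENSOARG00000002495 are high in ST, RF and SS.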

How the data were processed

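RNA of 9 muscles from each of 4 lambs was sequenced as paired reads, and LL and ST of the 4 animals were compared. The authors mapped the reads to Oar_v3.1 with TopHat2 (2.0.13), assembled transcripts with Cufflinks (2.2.1) merged with the Ensembl annotation, and deposited raw counts of reads per locus from HTSeq, with no normalization. The strand setting of the counting is not given in the sources used here, so overlapping and antisense loci cannot be told apart. Of 31530 entries per file, 394 repeats of a locus were dropped, which left 31136 loci.

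Counts of all 36 samples were fitted with edgeR (4.0.16, R 4.3.3) by its quasi-likelihood test with muscle and animal as terms, TMM factors and filterByExpr, and p-values were adjusted by the Benjamini-Hochberg method over the 12461 loci kept. Loci with an FDR of 0.01 or less that changed by more than 1 on the log2 scale were taken as DEG. Levels are CPM of the TMM-normalized library, and differences per animal use a prior count of 2. The replicate numbers pair the samples because a label of each sample gives the animal it came from. The deviations of LL and ST from their muscle means correlated by 0.14, -0.0016, 0.14 and 0.071 in animals 1 to 4, and differently numbered samples reached 0.16. No 2 samples of a muscle agreed within sampling noise. The study's tables pair symbols with positions, through which 30 genes were assigned to a single tested locus. No Ensembl identifier matched the reference gene table, whose assembly is ARS-UI_Ramb_v3.0, and no genome was used, so no sequence is shown. Genes were named if paired and past the thresholds, with up to 4 others by counts, and unnamed loci by smallest p or largest fold. KCNMA1, RIMS2, DLG2, METTL21C, PPP1R3D, HOXD8, HOXC10, MYOM3, TNNI1 and the loci at shared positions fall outside that rule and were chosen as list members or after their values were seen. The comparison, the lists and the genes were chosen with earlier results of these data known. Alternatives were the likelihood ratio test, DESeq2 (1.42.0), RLE factors, other filters and thresholds, the 8 samples alone, no animal term and each animal left out. A fit of loci with an Ensembl gene, and factors from them, were added after the data were seen. The fits were tested on simulated data.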

Additional observations from a re-analysis of the deposited data

Results flagged for a closer look

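Among 100 groups of 4 samples examined, 6 held a sample whose gap to its nearest neighbour was above Dixon's 95% critical value for the share of the range. Gaps and ranges were taken on log2(CPM + 1), so groups could be marked otherwise on CPM. Chance alone would mark about 1 in 20 groups if they were independent and normally distributed. These groups are not independent, as 1 of the chromosome 12 loci also enters the sum of its region. The 6 are therefore not set against that rate. LL of animal 1 was the sample in 3 of the 6. It stood at 59.9 CPM at chr6:43210256-43215274, with 0.537 CPM as the next value, at 26.7 CPM for 1 of the loci that share the span of the chromosome 12 region, where the lowest LL sample was at 4.80 CPM, and at 1262 CPM for the sum of that region, with 133 CPM as the lowest. At each of these 3, animal 1 was also the highest sample in every one of the other 7 muscles. LL of animal 3 was at 24.7 CPM at chr15:39966160-40174168, where the lowest LL sample was at 5.56 CPM. ST of animal 3 was at 181 CPM for the sum of the region at chr3:20055709-20188741, beside a lowest value of 102.4 CPM. ST of animal 4 was at 0.216 CPM for SIM2, which is 1 count, while the other 3 ST samples had none.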

How the results depend on the processing

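The number of DEG (192, with 104 higher in LL and 88 in ST) was 30 (20 and 10) in a fit of the 8 samples alone, 86 (25 and 61) without the animal as a block, 399 (264 and 135) with no filter on counts, 91 (47 and 44) with at least 10 counts in each of the 8 samples, 127 (51 and 76) with loci of Ensembl genes only and 341 (203 and 138) at an FDR of at most 0.05. With 1 animal left out it ranged from 95 to 211, from 61 to 122 higher in LL and from 34 to 92 in ST, lowest without animal 1. The likelihood ratio test gave 267, RLE factors 191, DESeq2 195 and no fold threshold 235. Of 337 values of the 26 loci past the thresholds under other settings, 293 stayed past them, 44 did not and 0 changed sign. Among 35 results not past them, 11 of 474 values changed sign, 18 passed and 445 kept both. With 1 animal left out the sign changed, and the log2FC ranged, for DLG2 (-0.43 to 0.78), MYOM3 (-0.36 to 0.83), PDLIM1 (-0.37 to 0.38), loci at SLC16A3 (-0.13 to 0.17) and MYL6 (-0.13 to 0.69) and 2 units at RORA (-0.20 to 0.12 and -0.25 to 0.16). It also changed for a locus at MYH7B, to 0.0040 with Ensembl genes only and 0.0042 with factors from them. The cause of these changes was not tested. Loci near 3 counts, such as SIM2 and PVALB in the lower muscle, allow no fold beyond their counting intervals.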
